A study of Homo sapiens with 6 samples.

Results

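The oxygen-sensing module of hypoxia-inducible factor (HIF) was examined at the RNA level in paclitaxel (PTX)-resistant MDA-MB-231, an established human triple-negative breast cancer cell line. The 9 genes were listed by name, with earlier results of these data known. These are HIFα subunits (HIF1A, EPAS1, HIF3A), their partner ARNT, prolyl hydroxylases (EGLN1, EGLN2, EGLN3), the asparaginyl hydroxylase HIF1AN and the ubiquitin ligase subunit VHL. They were 9 of the 61014 annotated genes with a transcript on file, and 8 of the 20442 genes that had enough counts to be tested. HIF3A fell under the expression filter. Both groups came from the same PTX-resistant line and were sorted by flow cytometry on aldehyde dehydrogenase (ALDH) activity, with dead cells gated out. The breast cancer stem cell group (BCSC) was ALDH+ and the non-BCSC group was ALDH-, with 3 libraries each. The sort is a functional gate on a single line, and the labels do not say whether the 3 libraries of a group came from separate cultures. The p-values therefore measure the spread between these libraries, which may be technical.

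HIF is a transcription factor made of an oxygen-labile α subunit and the stable β subunit ARNT. In oxygenated cells the EGLN enzymes hydroxylate prolines of the α subunit, VHL then binds it and marks it for the proteasome, and HIF1AN hydroxylates an asparagine that blocks recruitment of the coactivators EP300 and CREBBP. When oxygen falls, the hydroxylases slow down, the α subunit accumulates, and HIF binds DNA at a short core motif and raises its target genes, EGLN3 and EGLN1 among them. Most of this control acts on protein, which RNA counts do not measure.

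Total counts ran from 15925943 to 21215352 in BCSC and from 9898588 to 12263667 in non-BCSC libraries. Values below are CPM, counts put on a shared scale by library size, given in replicate order, and each log2 fold change is BCSC over non-BCSC with its standard error (SE). Tests were edgeR quasi-likelihood fits over all genes with Benjamini-Hochberg (BH) adjustment, and a gene passed at an adjusted p under 0.05. The line's markers VIM and CD44 were present, with VIM at 2320 to 3735 CPM, and EGFR was at 140 to 204 CPM. Of the markers that the line should lack, EPCAM was at 0 to 1.82 CPM, ESR1 at 3.65 to 16 CPM (log2 fold change -1.19, adjusted p = 0.0678 by edgeR) and PGR at 0.326 to 19.1 CPM, lower in BCSC (-4.19, 0.00218). The leukocyte marker PTPRC had 4, 6 and 19 counts in BCSC against 160, 256 and 216 in non-BCSC, and the fibroblast markers COL1A1 and PDGFRB were at most 12.5 CPM. Of 3 ALDH genes, ALDH1A3 had a log2 fold change of 0.77 (adjusted p = 0.0577 by edgeR), while ALDH1A1 (-3.63, 0.0446) and ALDH3A1 (-1.49, 0.0484) were lower in the ALDH+ group, at no more than 3.14 and 12.5 CPM in any library. Non-BCSC libraries carried more counts in genes that breast cells are not known to use: 396 olfactory receptor genes summed to 519.8, 680.5 and 1184 CPM of all counts, against 37.52, 53.12 and 146.3 CPM in BCSC. Across genes, the log2 fold change also moved with GC content (Spearman rho 0.545 over 20442 genes, which are not independent replicates). Both patterns lie between the same groups as the comparison. A GC and length correction was therefore fitted over all tested genes (the all-gene correction) and over genes with at least 100 counts (the 100-count correction), and the olfactory receptor level was subtracted in a further fit. Of all genes, 9.84% were higher and 17.6% lower after the 100-count correction, and 25.9% and 10.2% after the all-gene correction.

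Of the 8 genes tested, 4 were higher in BCSC (EPAS1, HIF1AN, VHL and EGLN2) and 3 were lower (HIF1A, EGLN1 and EGLN3). Of all genes tested, 15.3% were higher and 14.6% lower by the same rule. With the additional requirement of a fold above 2, 1 gene was higher (EGLN2) and 1 was lower (EGLN3), where 8.85% and 11.3% of all genes were. The BCSC and non-BCSC values did not overlap for 7 of the 8 tested genes, ARNT being the exception, and did not overlap for 52.1% of all genes tested. The median log2 fold change was 0.40 over the 8 genes and -0.05 over all genes.

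**Figure D1:**
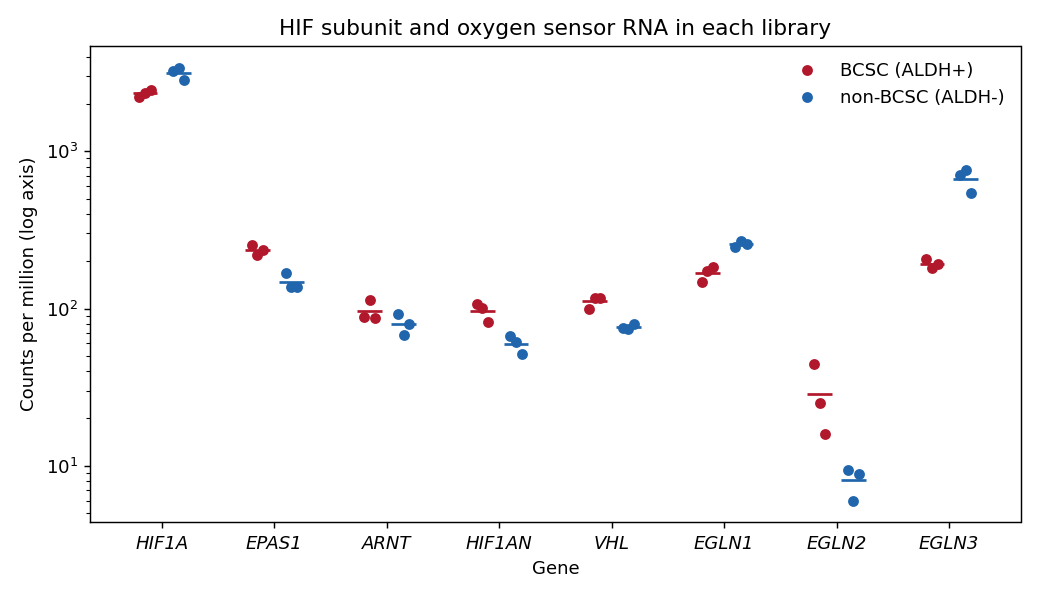
CPM (log axis) of the 8 tested genes in each of the 3 BCSC (red) and 3 non-BCSC (blue) libraries. Points are libraries and horizontal bars are group means. HIF1A is the highest gene in both groups, EGLN3 is at 182.2 to 205.8 CPM in BCSC and 542.7 to 758.7 in non-BCSC, and the points of the groups overlap only for ARNT.

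HIF1A, which encodes HIF-1α, was the most abundant of the 9 genes in both groups. It was at 2210, 2332 and 2458 CPM in BCSC against 3232, 3405 and 2826 CPM in non-BCSC. Every BCSC library lay below every non-BCSC library. The log2 fold change was -0.44 (SE 0.10, adjusted p = 0.0106 by edgeR, 95% confidence interval -0.65 to -0.22). The difference was small, and it missed the threshold without BCSC replicate 2 (-0.41, adjusted p = 0.0665 by edgeR), without non-BCSC replicate 1 (-0.36, 0.0572) and without non-BCSC replicate 2 (-0.33, 0.0692). The all-gene correction turned the value to 0.74 (adjusted p = 0.0312 by edgeR), whereas the 100-count correction gave -0.36 (0.00932) and removal of the olfactory receptor background -0.68 (0.00202).

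Of 11 HIF1A transcripts on file, 10 had counts and HIF1A-203 and HIF1A-202 took nearly all of them. HIF1A-203 had 31576, 17694 and 24291 counts in BCSC against 20828, 12607 and 20071 in non-BCSC. HIF1A-202 had 11467, 15174 and 11463 counts in BCSC against 16275, 23933 and 8171 in non-BCSC. The share of HIF1A counts in HIF1A-203 was 59.9% ± 10.4 (SD, n = 3) in BCSC and 51.3% ± 17.8 in non-BCSC, so the groups overlapped. In the annotation the pair is identical over the last 3619 bases. HIF1A-203 starts 27 bases later and carries 3 more bases at the start of exon 2. The junction of exon 1 and exon 2, all of it coding sequence, is shown because it is the only internal difference on which a read could be told apart, with the additional bases in capitals:
HIF1A-202: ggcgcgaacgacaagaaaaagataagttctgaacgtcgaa
HIF1A-203: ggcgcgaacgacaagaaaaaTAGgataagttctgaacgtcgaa
Added together, HIF1A-202 and HIF1A-203 were at 2120, 2144 and 2162 CPM in BCSC against 3062, 3228 and 2708 CPM in non-BCSC. The sum was far steadier within BCSC (2142 ± 21.1, SD, n = 3) than either transcript (HIF1A-203 was 1393 ± 211), and it kept the groups apart. Neither transcript passed alone: the log2 fold change was -0.10 (SE 0.23, adjusted p = 0.889 by edgeR) for HIF1A-203 and -0.85 (SE 0.40, 0.364) for HIF1A-202.

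HIF1A-201 leaves out exon 14. The exon is printed from HIF1A-202 in capitals, with 10 bases on each side, above the junction that HIF1A-201 has in its place, because the 127 bases separate this product from full-length HIF1A:
HIF1A-202: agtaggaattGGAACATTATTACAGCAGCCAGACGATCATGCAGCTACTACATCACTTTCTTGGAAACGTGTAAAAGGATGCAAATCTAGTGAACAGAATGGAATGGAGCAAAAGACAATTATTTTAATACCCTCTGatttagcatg
HIF1A-201: agtaggaattatttagcatg
HIF1A-201 had 1015, 851 and 626 counts in BCSC against 1252, 1408 and 518 in non-BCSC. As a share of HIF1A-201, HIF1A-202 and HIF1A-203 together this was 2.3%, 2.52% and 1.72% against 3.26%, 3.71% and 1.8%. The ranges overlapped, and the log2 fold change of the transcript was -0.88 (SE 0.41, adjusted p = 0.356 by edgeR). HIF1A-212, which has no annotated coding sequence, varied widely between the BCSC libraries, with 333, 1656 and 3868 counts in BCSC against 345, 164 and 241 in non-BCSC (adjusted p = 0.245 by edgeR). HIF1A-201 and HIF1A-212 were singled out with their values known.

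Antisense transcription lies over the HIF1A exons. HIF1A-AS1, which shares 133 exonic bases with the opposite strand of HIF1A, had 83, 70 and 77 counts in BCSC against 38, 25 and 36 in non-BCSC (adjusted p = 0.412 by edgeR). HIF1A-AS3, with 299 such bases, had 49, 48 and 72 counts against 82, 74 and 78 (adjusted p = 0.0988 by edgeR). The largest of these is 83 counts beside 44862 for HIF1A in the same library. The libraries were made with dUTP marking, which keeps strand, but whether the counting used strand is not stated, so reads of HIF1A and its antisense partners may not have been told apart.

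EPAS1 encodes HIF-2α, the paralog of HIF-1α that shares its partner and its core motif. It was at 255.2, 217.4 and 235.5 CPM in BCSC against 168.1, 137.1 and 137.8 CPM in non-BCSC, with every BCSC library above every non-BCSC library. The log2 fold change was 0.68 (SE 0.12, adjusted p = 0.00401 by edgeR), a 1.6-fold higher level. It passed without each library in turn, but not after the GC and length corrections, which gave -0.06 (all-gene, adjusted p = 0.824 by edgeR) and -0.01 (100-count, 0.935). With the background removed it was 0.45 (0.0181). The difference in EPAS1 could not be told apart from the GC trend between the groups. EPAS1-201 held 94.5% of the counts, with 4866, 3273 and 3662 in BCSC against 1904, 1549 and 1213 in non-BCSC (log2 fold change 0.80, SE 0.18, adjusted p = 0.0833 by edgeR). The short EPAS1-208, singled out once its values were known, had 59, 39 and 178 counts in BCSC and 0 in each non-BCSC library (adjusted p = 0.0789 by edgeR), where a count of 0 allows up to 3 counts.

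HIF1A and EPAS1 moved in opposite directions in the uncorrected fit, so their ratio differed. Measured per length, that is, each transcript's count divided by its length, summed per gene and scaled to the same total in every library, HIF1A was at 1643 ± 156 (SD, n = 3) in BCSC and 2246 ± 142 in non-BCSC. EPAS1 was at 9.75%, 7.68% and 10.2% of the HIF1A level per length in BCSC and at 3.96%, 2.93% and 3.76% in non-BCSC. HIF1A remained far above EPAS1 in all 6 libraries. Both genes moved with the GC and length corrections, and these ratios are uncorrected.

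HIF3A, whose products include short forms that antagonise the other α subunits, had very few counts. Of its transcripts only HIF3A-205 and HIF3A-207 had counts, and the gene summed to 4, 0 and 4 counts in BCSC against 13, 8 and 17 in non-BCSC. The groups did not overlap. Per kilobase of annotated transcript, however, the HIF3A count was 1.15 times that of the olfactory receptor genes in BCSC and 0.784 times in non-BCSC, so its level was that of the background in both groups. HIF3A was not tested in the reported fit. It entered 7 of the other fits, with log2 fold changes of -3.34 to -2.29 and adjusted p of 0.169 to 0.333 by edgeR.

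ARNT, the β subunit that every HIFα needs to bind DNA, was at 88.52, 112.7 and 87.39 CPM in BCSC against 92.26, 68.21 and 79.98 CPM in non-BCSC. The groups overlapped. The log2 fold change was 0.26 (SE 0.16, adjusted p = 0.227 by edgeR) with a 95% confidence interval of -0.09 to 0.61, which leaves room for a moderate rise but not for a large change in either direction in this fit. The all-gene correction gave 0.60 (adjusted p = 0.045 by edgeR), the 100-count correction 0.10 (0.636) and background removal 0.05 (0.841). ARNT-202 held 94.8% of the counts, and its log2 fold change was 0.37 (SE 0.23, adjusted p = 0.507 by edgeR). Per length, ARNT was at 66.89 in BCSC and 58.91 in non-BCSC, below both HIF1A and EPAS1 in the group means.

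EGLN3 (PHD3) is a prolyl hydroxylase with a preference for HIF-2α and is itself a HIF target. It had the smallest adjusted p of the 9 genes, at 205.8, 182.2 and 191.8 CPM in BCSC against 711.3, 758.7 and 542.7 CPM in non-BCSC. The lowest non-BCSC library was far above the highest BCSC library. EGLN3 was 3.47-fold lower in BCSC, with a log2 fold change of -1.80 (SE 0.13, adjusted p = 7.68e-05 by edgeR). The value stayed between -2.03 and -1.52 in the 17 alternative fits and passed the test in each, including both GC corrections and the removal of the olfactory receptor background. EGLN3-201 held 94.1% of the counts, at 3652, 2495 and 2873 in BCSC against 8250, 8312 and 5465 in non-BCSC.

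Of 29 tested transcripts of the 9 genes, 1 passed, EGLN3-201, with a log2 fold change of -1.83 (SE 0.17, adjusted p = 0.0359 by edgeR). None was higher. Of all transcripts tested, 0.606% were higher and 0.204% lower at this threshold. The spread between libraries was larger for transcripts than for genes (biological coefficient of variation 1.02 and 0.453). At an unadjusted p under 0.05, 8 of the 29 transcripts were found by edgeR. At the reported threshold, an adjusted p under 0.05, DESeq2 called 4 member transcripts higher and 3 lower. The shares of all transcripts given above belong to the edgeR adjusted threshold. None was taken for the unadjusted and the DESeq2 counts, so those counts cannot be read as a result about the members. EGLN3-201 missed the threshold when any 1 of the 6 libraries was left out. Also singled out, EGLN3-205 had 494, 286 and 274 counts against 322, 240 and 164, a log2 fold change of -0.01 (SE 0.42, adjusted p = 0.995 by edgeR). Its share of EGLN3 was 10.2% in BCSC and 3.14% in non-BCSC.

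EGLN1 (PHD2), the main enzyme that sets HIF-1α level in oxygenated cells, was at 147.4, 173.1 and 183.2 CPM in BCSC against 245.8, 268.4 and 258.2 CPM in non-BCSC. The groups did not overlap. EGLN1 was 1.53-fold lower in BCSC, with a log2 fold change of -0.62 (SE 0.11, adjusted p = 0.00439 by edgeR). It passed without each library in turn. The all-gene correction turned the value to 0.69 (adjusted p = 0.0208 by edgeR), while the 100-count correction left -0.51 (0.00132) and background removal -0.85 (0.00225).

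The counts of EGLN1 were divided unevenly between its transcripts. EGLN1-201 had 2256, 1735 and 2396 counts in BCSC against 2488, 2404 and 1169 in non-BCSC (log2 fold change -0.45, SE 0.30, adjusted p = 0.537 by edgeR). EGLN1-206 had 607, 765 and 587 counts in BCSC but 9, 473 and 1438 in non-BCSC (-0.55, SE 1.40, 0.903). The 3 non-BCSC libraries thus ranged widely for EGLN1-206 while their EGLN1 sums stayed within 245.8 to 268.4 CPM. A further annotated gene, ENSG00000287856, shares 3004 exonic bases with EGLN1 on the same strand and held at most 19 counts in any library.

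EGLN2 (PHD1) was the least abundant prolyl hydroxylase. It was at 44.53, 25.05 and 15.91 CPM in BCSC against 9.408, 6.008 and 8.919 CPM in non-BCSC. The BCSC libraries differed widely among themselves, and the lowest still lay above the highest non-BCSC library. The log2 fold change was 1.81 (SE 0.39, adjusted p = 0.00915 by edgeR, 95% confidence interval 0.95 to 2.68), a 3.51-fold higher level. Without BCSC replicate 1 it was 1.33 (adjusted p = 0.0366 by edgeR). The all-gene correction brought it to 0.24 (0.507) and the 100-count correction to 0.83 (0.0435), so its size depended on the treatment of GC content, and background removal left 1.81 (0.0134). Restricted to protein-coding transcripts, the value was 2.24 and missed the threshold (0.0724).

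Among EGLN2 transcripts, EGLN2-207 had 275, 249 and 153 counts in BCSC against 34, 8 and 52 in non-BCSC (log2 fold change 2.29, SE 0.80, adjusted p = 0.224 by edgeR). EGLN2-216, a retained-intron form, had 223, 77 and 68 against 28, 20 and 13 (2.0, SE 0.66, 0.198). The protein-coding EGLN2-201 had 310 counts in BCSC replicate 1 and 0 in the other 5 libraries. The read-through gene RAB4B-EGLN2, which shares 2012 exonic bases with EGLN2, had 73, 20 and 1 counts in BCSC and 0 in each non-BCSC library, and adding it gave a log2 fold change of 1.89 (adjusted p = 0.00875 by edgeR).

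**Figure D2:**
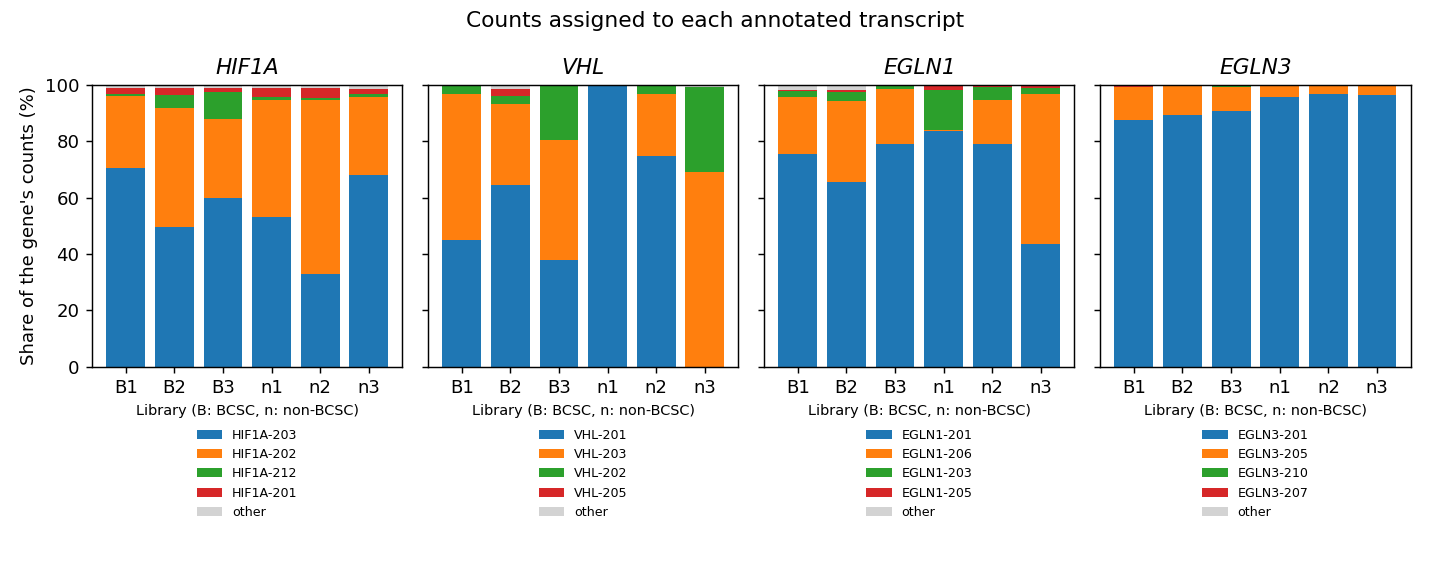
Share of each gene's counts (%) assigned to its annotated transcripts, one bar per library (B1 to B3 BCSC, n1 to n3 non-BCSC). The 4 transcripts with the largest mean share are coloured and the rest are grey. EGLN3 is mostly EGLN3-201 in every library, whereas the division of VHL and EGLN1 changes between libraries of the same group, with VHL-201 at 0 in n3.

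Per length, the prolyl hydroxylases together were at 343, 339 and 339 in BCSC against 884, 940 and 782 in non-BCSC. The sum was 340 ± 2.38 (SD, n = 3) against 869 ± 80.1, so BCSC libraries carried less EGLN RNA in total, and the groups did not overlap. EGLN3 made up 56.2%, 52.2% and 57.3% of the sum in BCSC and 76.1%, 78.7% and 71.1% in non-BCSC. EGLN1 made up 35.9% ± 5.34 and 23.5% ± 3.7, and EGLN2 8.86% ± 4.75 and 1.25% ± 0.395. EGLN3 was the most abundant of the 3 enzymes per length in all 6 libraries, at 1.57 ± 0.291 times EGLN1 in BCSC and 3.28 ± 0.644 times in non-BCSC. These sums and shares have no test and were not put through the GC and length corrections. The all-gene correction turned the log2 fold change of EGLN1 to 0.69 and brought that of EGLN2 to 0.24.

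**Figure D3:**
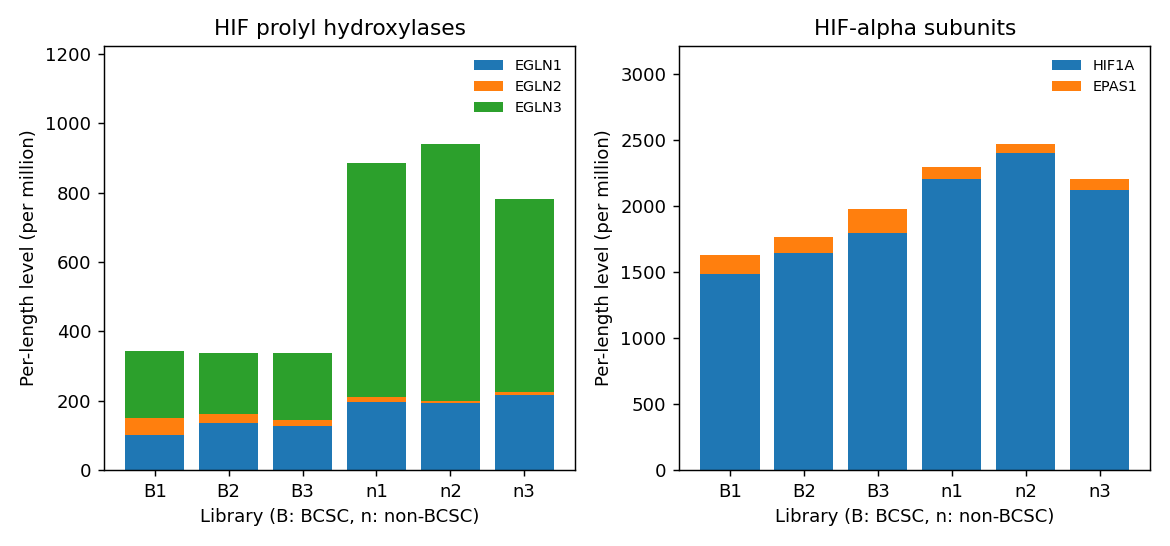
Stacked level per length (scaled to the same total in every library, linear axis from 0) of the prolyl hydroxylases (left) and of HIF1A and EPAS1 (right) in each library (B1 to B3 BCSC, n1 to n3 non-BCSC). The EGLN stack is 339 to 343 in BCSC and 782 to 940 in non-BCSC, and most of that difference lies in EGLN3.

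The sequence before the transcription start was read for EGLN3 and EGLN1, the prolyl hydroxylases that were lower in the uncorrected fit. It was also read for EPAS1, the α subunit that was higher in that fit. Each window of 250 bases comes from RefSeq on GRCh38.p14, is written 5′ to 3′ on the strand of the gene and ends at the base before the start. Capitals mark the HIF core motif, searched as ACGTG and GCGTG on both strands. ACGTG is also contained in the E-box CACGTG, which other factors bind.
EGLN3 chr14:33951075-33951324 minus strand: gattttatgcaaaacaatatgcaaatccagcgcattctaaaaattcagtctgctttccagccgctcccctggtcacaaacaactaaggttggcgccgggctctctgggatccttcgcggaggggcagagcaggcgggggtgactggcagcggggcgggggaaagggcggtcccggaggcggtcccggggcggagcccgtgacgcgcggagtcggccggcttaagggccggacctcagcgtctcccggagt
EGLN1 chr1:231422288-231422537 minus strand: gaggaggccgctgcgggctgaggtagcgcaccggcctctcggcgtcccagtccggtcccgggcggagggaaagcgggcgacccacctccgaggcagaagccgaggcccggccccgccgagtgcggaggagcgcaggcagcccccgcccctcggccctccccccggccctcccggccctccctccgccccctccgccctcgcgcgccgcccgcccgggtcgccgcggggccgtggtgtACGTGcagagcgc
EPAS1 chr2:46297157-46297406 plus strand: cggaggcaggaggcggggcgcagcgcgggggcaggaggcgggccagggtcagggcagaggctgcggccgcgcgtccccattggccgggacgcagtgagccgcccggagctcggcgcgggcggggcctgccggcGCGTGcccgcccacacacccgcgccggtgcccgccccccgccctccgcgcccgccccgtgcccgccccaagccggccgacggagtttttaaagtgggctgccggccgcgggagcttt
The EGLN3 window held no match, and sequence outside the 250 bases was not searched. The EGLN1 window held 1 match to ACGTG, whose first base lies 13 bases before the start, and the EPAS1 window held 1 match to GCGTG at 117 bases. Of 35116 windows of the same length in the table, 18.5% held ACGTG, 32.2% held GCGTG and 43.2% held either, so a single match is common. Among the genes examined, 8 had windows in the table, 12 windows in all, and 5 of the 12 held a match. In the EGLN2 window at chr19:40798941-40799190 the match is a CACGTG, which 6.34% of windows hold and which reads as ACGTG on both strands. A match is a description of these letters and does not show binding.

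HIF1AN encodes factor inhibiting HIF (FIH). It was at 106.2, 100.9 and 81.53 CPM in BCSC against 67.09, 61.31 and 51.21 CPM in non-BCSC. Every BCSC library was above every non-BCSC library. The log2 fold change was 0.68 (SE 0.16, adjusted p = 0.0117 by edgeR), a 1.61-fold higher level. It passed in each of the 17 alternative fits, with values from 0.46 (100-count correction) to 1.12 (all-gene correction) and 0.52 with the background removed. HIF1AN and EGLN3 were thus the only tested members whose direction and call held throughout. The HIF1AN call came close to the threshold, with an adjusted p of 0.049 by edgeR without BCSC replicate 2. The largest adjusted p of EGLN3 in these fits was 0.00249 by edgeR. HIF1AN-201 held 98.7% of the counts (log2 fold change 0.79, SE 0.24, adjusted p = 0.177 by edgeR). NDUFB8 lies antisense to HIF1AN and shares 325 exonic bases with it. It had 561, 373 and 252 counts in BCSC against 168, 162 and 141 in non-BCSC. These counts are not scaled by library size, and the BCSC libraries had more counts in total. They are therefore not read as a difference between the groups. Whether reads of NDUFB8 entered the HIF1AN count was not tested.

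VHL, the substrate-recognition subunit of the ligase that binds hydroxylated HIFα, was at 99.01, 117.5 and 117.3 CPM in BCSC against 75.26, 74.48 and 79.21 CPM in non-BCSC. The groups did not overlap. The log2 fold change was 0.54 (SE 0.12, adjusted p = 0.0105 by edgeR), a 1.46-fold higher level. It missed the threshold without BCSC replicate 2 (0.53, adjusted p = 0.0509 by edgeR), after removal of the olfactory receptor background (0.36, 0.0665) and with protein-coding transcripts alone (0.19, 0.768). It passed with the all-gene correction (1.03, 0.001) and the 100-count correction (0.36, 0.0339).

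The division of VHL counts between its transcripts was unstable. VHL-201, the full-length coding form, had 906, 1164 and 731 counts in BCSC against 912, 630 and 0 in non-BCSC (log2 fold change 0.39, SE 1.79, adjusted p = 0.949 by edgeR). VHL-203, which has no annotated coding sequence, had 1039, 513 and 829 in BCSC against 0, 185 and 571 in non-BCSC (1.03, SE 1.79, 0.846). In non-BCSC replicate 3 VHL-201 was at 0 and VHL-203 at 571, while in replicate 1 VHL-203 was at 0 and VHL-201 at 912, yet the VHL sums of those libraries were 79.21 and 75.26 CPM. The per-length level of VHL, which depends on this division, was 165.7 in BCSC and 101.2 in non-BCSC and is correspondingly uncertain. The antisense gene ENSG00000287086 shares 1173 exonic bases with VHL and had at most 31 counts in any library.

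**Figure D4:**
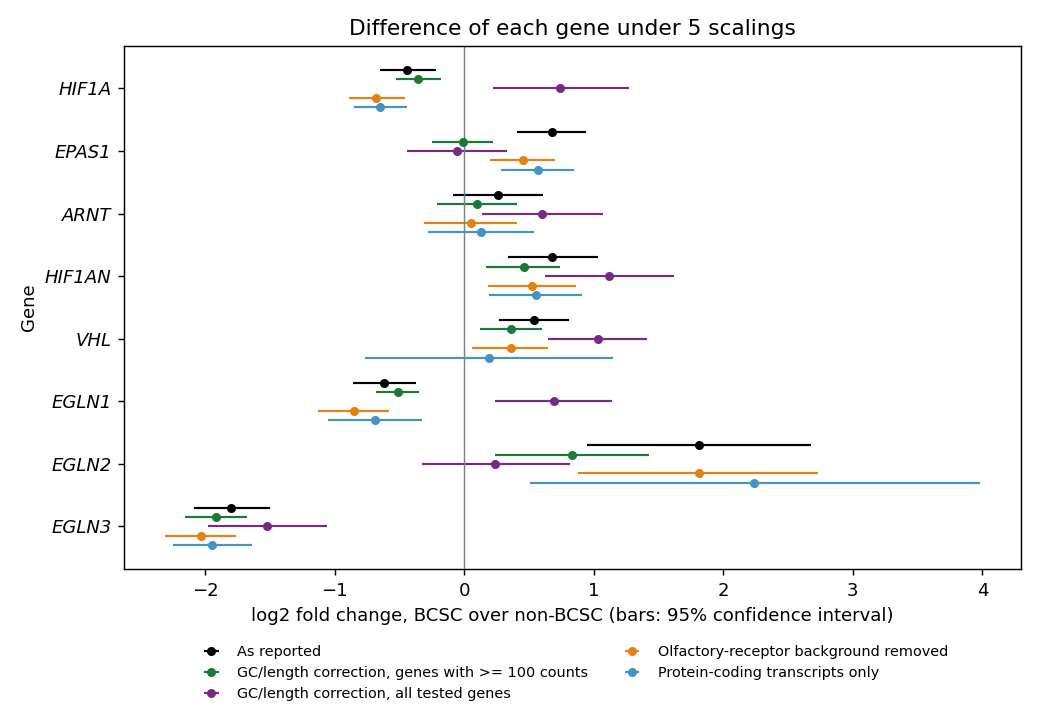
Log2 fold change of each tested gene, BCSC over non-BCSC, in the reported fit and in 4 others that change the composition of the counts. Points are estimates, bars are 95% confidence intervals and the vertical line is 0. The whole interval of EGLN3 stays left of 0 and that of HIF1AN right of 0 in all 5. The points of ARNT, VHL and EGLN2 are also right of 0 in all 5, but each has an interval that crosses 0 in some fit. HIF1A and EGLN1 change side with the GC and length correction fitted over all tested genes, and EPAS1 falls to about 0 with both corrections.

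The remaining pathway genes were taken from 6 lists, whose counts stand beside the 15.3% of all genes that were higher and the 14.6% that were lower in the same fit. Values after the 100-count and the all-gene correction are given in that order. Of the 6 partners and paralogs of the HIF subunits, 4 were tested, 1 was higher and 1 lower, with a median log2 fold change of -0.49 against -0.05 over all genes. ARNT2, a paralog of ARNT, was at 45.43 ± 8.37 CPM in BCSC and 22.5 ± 5.75 in non-BCSC (SD, n = 3), a log2 fold change of 1.01 (SE 0.24, adjusted p = 0.0137 by edgeR). SIM1, a neural relative of the α subunits, was at 0.9189 ± 0.206 CPM against 5.95 ± 1.17 (-2.69, SE 0.60, 0.0107), the same direction as the olfactory receptor counts. Corrected, ARNT2 was 0.51 (adjusted p = 0.0821 by edgeR) and 0.88 (0.0182), and SIM1 -2.84 and -2.16.

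Of the 6 other components of the VHL ligase, all were tested, 1 was higher and none was lower, with a median of 0.34. The higher gene was the ubiquitin-conjugating enzyme gene UBE2D2, at 135.9 ± 6.82 CPM in BCSC and 90.24 ± 6.61 in non-BCSC (log2 fold change 0.59, SE 0.11, adjusted p = 0.00564 by edgeR), with corrected values of 0.60 and 1.43. The scaffold CUL2 was at 0.05 (SE 0.14, adjusted p = 0.812 by edgeR), and at 0.13 and 1.32 (0.413 and 0.000828) when corrected. After the all-gene correction 5 of the 6 were higher and 1, ELOB, was lower (-0.92, adjusted p = 0.0156 by edgeR). Of all genes, 25.9% were higher and 10.2% lower after that correction.

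Of 19 genes for HIFα stability and translation, 18 were tested, 3 were higher and 2 lower, with a median of 0.29. HSP90AA1, the chaperone that protects HIFα from oxygen-independent degradation, was at 3395 ± 167 CPM in BCSC and 4584 ± 202 in non-BCSC (log2 fold change -0.43, SE 0.08, adjusted p = 0.00589 by edgeR). FBXW7, a ligase subunit that recognises phosphorylated HIF-1α, was also lower (-0.44, SE 0.13, 0.0301). GSK3B, a kinase that phosphorylates HIF-1α ahead of its degradation, was higher (0.36, SE 0.11, 0.0309), as were the SUMO protease SENP1 (0.45, SE 0.13, 0.0257) and the deubiquitinase USP20 (1.48, SE 0.47, 0.039), which was below 10 CPM in the mean of both groups. The USP20 call ended in both corrections (0.57 and 0.25, adjusted p = 0.422 and 0.717 by edgeR). HSP90AA1 was -0.46 and 0.20 and FBXW7 -0.43 and 0.46, so both changed sign with the all-gene correction, whereas GSK3B (0.52 and 1.43) and SENP1 (0.53 and 1.64) kept theirs. PLK3, the kinase the study follows, was at 3.16 ± 1.67 CPM in BCSC and 1.041 ± 1.16 in non-BCSC. Its log2 fold change of 1.59 (SE 1.17, adjusted p = 0.326 by edgeR) did not pass.

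Of 12 coactivators and repressors, 11 were tested, 6 were higher and none was lower, with a median of 0.52. CREBBP, the acetyltransferase that FIH activity keeps away from HIFα, was at 177.1 ± 31.1 CPM in BCSC and 73.89 ± 2.06 in non-BCSC (log2 fold change 1.26, SE 0.14, adjusted p = 0.000588 by edgeR), and its relative EP300 was at 119 ± 9.62 against 91.92 ± 7.31 (0.37, SE 0.12, 0.0421). The coactivator NCOA1 (0.57, 0.00921), the histone deacetylases HDAC7 (1.5, 0.0123) and HDAC3 (0.52, 0.044) and the corepressor TRIM28 (0.86, 0.0175) were higher too by edgeR. After the 100-count correction 2 of the 11 were higher and 1 was lower, where 9.84% and 17.6% of all genes were. With the all-gene correction 4 were higher and none was lower, where 25.9% and 10.2% of all genes were. CREBBP (1.01 and 1.40) and NCOA1 (0.45 and 1.19) passed in both. HDAC7 (0.60 and -0.03), TRIM28 (0.06 and -0.29) and HDAC3 (0.28 and 0.39) passed in neither, with adjusted p from 0.0893 to 0.928 by edgeR, and EP300 was at 0.30 (0.0578) and 1.04 (0.00263).

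Of 15 other oxygen-dependent dioxygenases, 13 were tested, 2 were higher and 3 lower, with a median of 0.34. ASPH, an aspartyl hydroxylase, fell from 1634 ± 176 CPM in non-BCSC to 874.7 ± 57.8 in BCSC (log2 fold change -0.90, SE 0.10, adjusted p = 0.000689 by edgeR). P4HA1, a collagen prolyl hydroxylase, fell from 169.8 ± 10.7 to 88.79 ± 9.26 CPM (-0.94, SE 0.12, 0.000983), and the histone demethylase KDM4C was at -0.52 (0.0223). ADO, a thiol dioxygenase (0.68, 0.0269), and the demethylase KDM5C (0.78, 0.0448) were higher by edgeR. The higher calls also depended on GC content: KDM5C was 0.03 and 0.30 when corrected (adjusted p = 0.909 and 0.334 by edgeR), and ADO 0.38 and 1.03 (0.158 and 0.0029). ASPH (-0.76 and 0.56), P4HA1 (-0.85 and 0.38) and KDM4C (-0.55 and 0.25) changed sign with the all-gene correction, as HIF1A and EGLN1 did.

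Of 25 HIF target genes, 24 were tested, 5 were higher and 7 lower, with a median of -0.15. BNIP3L, a mitophagy receptor, was at 316.1 ± 49.8 CPM in BCSC and 886.7 ± 107 in non-BCSC (log2 fold change -1.49, SE 0.14, adjusted p = 0.000248 by edgeR). The collagen crosslinker LOX was at 201.2 ± 38.8 against 650.9 ± 125 (-1.69, SE 0.17, 0.000391), and NDRG1 at 115.3 ± 20.2 against 320.7 ± 106 (-1.48, SE 0.23, 0.00251). The genes of glucose use that passed went both ways. PDK1 (-0.71, 0.00274) and PGK1 (-0.66, 0.00435) were lower by edgeR. The glucose transporter SLC2A1 was higher, at 221.5 ± 61.1 CPM against 83.15 ± 12.2 (1.41, 0.00138). LDHA, lactate dehydrogenase A, was at 97.92 ± 5.05 CPM against 63.04 ± 6.68 (0.63, SE 0.13, 0.0078), and the aldolase gene ALDOA was also higher (0.71, SE 0.24, 0.0454). Other listed genes of glucose use did not pass: HK2 (-0.07, adjusted p = 0.753 by edgeR), ENO1 (-0.16, 0.724), PFKFB3 (-0.00, 0.989) and PFKFB4 (0.08, 0.859). LDHA, ALDOA, HK2, ENO1, PFKFB3 and PFKFB4 lie outside the naming rule and were singled out with their values known.

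The corrections moved these target genes unequally. LDHA was 0.66 and 1.35 when corrected and passed in all 18 fits. SLC2A1 fell to 0.56 (adjusted p = 0.0132 by edgeR) and 0.34 (0.159), and ALDOA was -0.11 and -0.51 (0.388 and 0.0515). PFKFB3 was -0.86 and -1.10 and passed as lower in both. HK2 (-0.62 and -0.06) and ENO1 (-0.67 and -0.62) passed as lower with the 100-count correction only. PFKFB4 (-0.56 and -0.62) passed in neither. PDK1 (-0.74 and 0.09) and PGK1 (-0.65 and 0.16) changed sign with the all-gene correction. BNIP3L (-1.47 and -0.72), LOX (-1.63 and -0.57) and NDRG1 (-2.02 and -2.27) stayed below 0, although LOX missed the threshold in the all-gene correction (0.101). Of the 24 tested targets, 2 were higher and 15 lower after the 100-count correction, where 9.84% and 17.6% of all genes were and the median of all genes was -0.21. After the all-gene correction 2 were higher and 6 lower, where 25.9% and 10.2% of all genes were. The share of targets called lower thus ranged widely with the treatment of GC content.

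**Figure D5:**
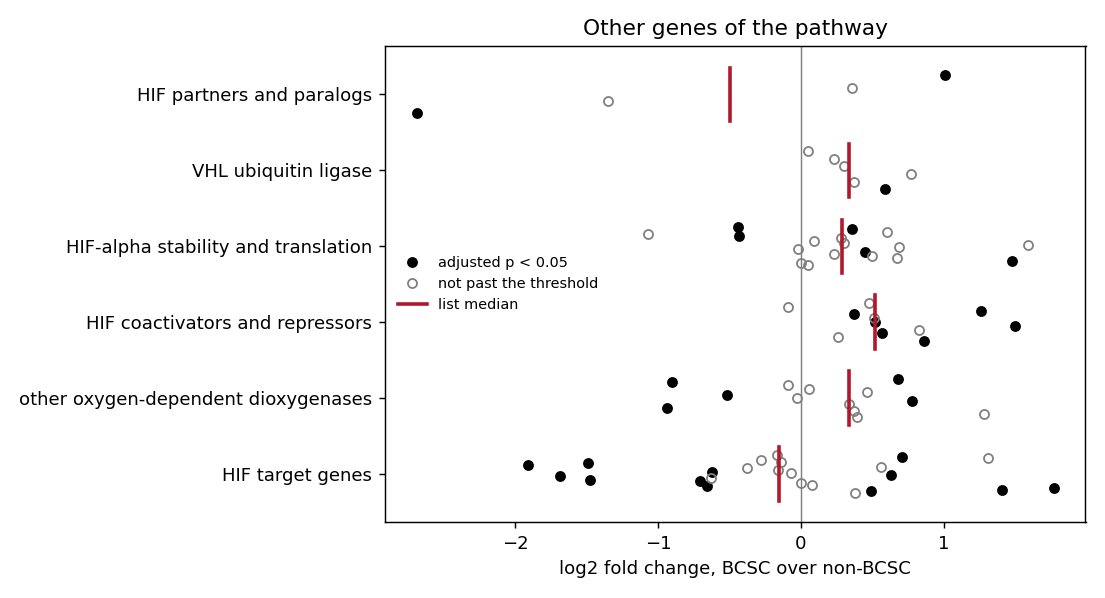
Log2 fold change, BCSC over non-BCSC, of each tested gene in the 6 pathway lists (1 row per list). Filled points passed an adjusted p under 0.05, open points did not, and red bars are list medians. The coactivator and repressor list has 6 filled points, all right of 0, and the target list has 5 right and 7 left of it.

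Of the 25 list genes that the naming rule gave, 5 (BNIP3L, CREBBP, NCOA1, NDRG1 and UBE2D2) passed in the same direction in all 18 fits and 14 did so in at least 15. HDAC3, EP300, GSK3B, USP20, KDM5C and KDM4C passed in 10 or fewer, HDAC3 in as few as 5.

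Across the 6 libraries, the genes whose log2 CPM tracked HIF1A most closely, out of 12575 genes averaging 50 counts or more, were PRC1 (Pearson r 0.9985), NDNF (0.9959) and ANKRD44 (0.9952). Those closest to EPAS1 were FAM171A1 (0.9981), ATP6V1B2 (0.9980) and RPS28 (0.9977). An r above 0.95 was reached by 256 genes for HIF1A and by 958 for EPAS1. The points share the group difference, the library and its base composition, so these values describe likeness over 6 libraries and have no test.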

How the data were processed

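Long non-coding RNA-sequencing of total RNA (random primers, dUTP strand marking) gave 6 libraries, grouped by sample title. The deposited values are estimated counts per transcript in whole numbers, not normalized, which the authors made from aligned reads. The submitters' processing notes name HISAT2, featureCounts, DESeq2 and hg38, while the study's RNA-seq methods name hg19, so transcripts were matched to GENCODE genes by identifier only (249616 of 252618, 98.81%), and the 4 assembler-made transcripts were left out. Counts were summed per gene. CPM use TMM library sizes. Genes and transcripts were tested in edgeR 4.0.16 (R 4.3.3; TMM, its expression filter, robust quasi-likelihood, group as the only term), with BH adjustment over all 20442 genes or 46176 transcripts. The fitting scripts were also run on simulated counts, which had less spread than the transcripts here and no GC trend or added background. The 3-count floor of a library is 0.141 to 0.303 CPM and covers counting error only. Olfactory receptor genes were taken by symbol. Named transcripts hold at least 10% of the gene's counts or passed. Named list genes passed, at most 6 per list by p. PLK3, CUL2, LDHA, ALDOA, HK2, ENO1, PFKFB3 and PFKFB4 were added. The members and lists were chosen with earlier results of these data known. Alternatives changed normalization, tool (DESeq2 1.42.0), filters, GC and length offsets (loess span 0.3), background, depth, transcripts summed and libraries. Replicate pairs differed beyond counting noise (chi-square per degree of freedom 15.2 to 42.1).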

Additional observations from a re-analysis of the deposited data

How the results depend on the processing

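Of the 17 alternative fits of each gene, all kept the direction and the call of EGLN3 (-2.03 to -1.52) and HIF1AN (0.46 to 1.12). The adjusted p by edgeR reached 0.049 for HIF1AN, close to the threshold, and 0.00249 for EGLN3. The GC and length correction fitted over all tested genes reversed HIF1A (0.74) and EGLN1 (0.69), put EPAS1 at -0.06, ended the call of EGLN2 (0.24) and left 1 of the 9 genes lower. The version fitted on genes with at least 100 counts, chosen after seeing the data, put EPAS1 at -0.01. Fitted over all genes the curve left a Spearman rho of -0.108 between log2 fold change and GC content, and fitted on well-counted genes 0.314, so neither removed the trend fully. They moved the median log2 fold change of all genes by 0.25 and -0.16. Leaving out libraries moved it by -0.22 to -0.02, removing the background by 0.14, and testing without a filter, over 49795 genes, by -0.97.

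Over all genes, 1810 were called higher and 2307 lower at an adjusted p under 0.05 and a fold above 2. The higher count was 3437 with the first GC correction, 582 with the second, 909 with protein-coding transcripts and 3125 without a minimum fold. The lower count was 3512 with DESeq2, 1177 with at least 10 counts in every library, 1086 with background removed and 735 with protein-coding transcripts. Leaving out 1 library gave 959 to 2230 higher and 1103 to 3004 lower. Of the 9 genes, 2 were higher with protein-coding transcripts, and 1 was higher and 1 lower with a fold above 2. Leaving out 1 library gave 3 to 4 higher and 2 to 3 lower. Member transcripts numbered 4 higher and 3 lower with DESeq2, for which no share of all transcripts was taken, and 0 lower when any 1 library was left out.

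Same-numbered libraries deviated together with correlations of 0.179, 0.0143 and 0.219, and BCSC replicate 2 was closer to non-BCSC replicate 1 (0.0544), so the numbers were not taken to pair the samples. With replicate number as a block, 1994 genes were called higher and 2321 lower, no member gene changed its call, and 0 member transcripts were lower. The depth, under 50 counts in all for HIF3A, does not allow a difference in that gene to be read.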
